A study of Mus musculus with 6 samples.

Results

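TRIM proteins are named for their tripartite motif, a RING domain, 1 or more B-boxes and a coiled coil. The RING domain transfers ubiquitin to target proteins, and the carboxy-terminal domain, in many members a SPRY domain, is thought to choose the target. Several members, such as Trim25 and Trim21, act in sensing of foreign nucleic acid or antibody-bound particles, some of their genes are induced by interferon, and a PHD-bromodomain branch (Trim24, Trim28 and Trim33) acts on chromatin instead. The genes described here are those of type protein_coding in the authors' expression table whose symbol is Trim followed by a number and at most a letter from a to d. There were 68 such genes among 21914 symbols. Ratios are given for the 40 that reached 1 FPKM (fragments mapped to a gene, scaled by its length and by the size of the library) in at least 2 libraries.

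The libraries were made from RNA of dendritic cells sorted by flow cytometry from peripheral lymph nodes or spleens of germ-free Rag knockout C57BL/6 mice, which lack T and B cells of their own. Dendritic cells take up antigen and present it to T cells. All 6 groups share the Rag deletion and the germ-free state. In each tissue the mice were un-injected, had received naive CD4 T cells, or had received regulatory T cells (Tregs), both sorted, about a week earlier. Each of the 6 combinations is a single library, so a difference within a tissue has no replicate check and no test, and which mice were pooled is not stated. The labels do not say which Rag gene was deleted or which markers defined the sort.

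The dendritic cell genes Itgax, Zbtb46 and Flt3 were present in every library, at 39.7 to 385, 13.5 to 49.8 and 56.6 to 221 FPKM. They did not move alike in the lymph node. From un-injected mice to naive T-cell recipients, Itgax went from 39.7 to 196 FPKM, Zbtb46 from 49.8 to 17.1 and Flt3 from 183 to 56.6. H2-Ab1, H2-Aa and Cd74, also listed as dendritic cell genes, were higher with naive T cells there. The sum of 9 T-cell genes was 16.9 to 142 FPKM, of which 3 passed the filter. Cd8a, which a subset of dendritic cells also expresses, made up most of it at 12.7 to 132 FPKM, Cd5 was at 1.66 to 4.80 in every library and Lck reached 3.86. Cd40lg was listed at 0 in all 6 libraries, Cd3e in 5 and Cd3g in 5, Cd3g being at 1.37 in the Treg lymph node. Foxp3 was at 0.400 to 0.720 FPKM in every library, and Cd28 and Cd3d reached 0.801 and 0.548. The part of these levels in the TRIM values was not tested. In bulk samples such as these, fewer cells of a type and less RNA per cell cannot be told apart.

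The promoter windows of 5 TRIM genes are printed, of 4 genes in which a motif related to interferon was found and of Trim30c, in which it was not, all among the genes with differences described below. Trim30b, with the highest ratio in the lymph node, is not printed: its RefSeq window lies inside the gene as GENCODE annotates it, and neither motif searched was found there. The sequences are from RefSeq on GRCm38.p6, 250 bases before to 50 bases after the RefSeq start, 5′ to 3′ on the strand of the gene, which is the minus strand for all 5. Capitals mark matches to the GAAA pair, that is GAAA, any 2 bases and GAAA again, which is the core of the element bound by interferon-activated transcription factors. It was searched on both strands, so that a match on the reverse strand reads TTTC, any 2 bases and TTTC. In Trim30c the capitals mark instead TTCNNNGAA, the palindrome bound by STAT factors. The motifs were searched independently, and overlapping matches are in a single run of capitals.
Trim30a, chr7:104465144-104465443: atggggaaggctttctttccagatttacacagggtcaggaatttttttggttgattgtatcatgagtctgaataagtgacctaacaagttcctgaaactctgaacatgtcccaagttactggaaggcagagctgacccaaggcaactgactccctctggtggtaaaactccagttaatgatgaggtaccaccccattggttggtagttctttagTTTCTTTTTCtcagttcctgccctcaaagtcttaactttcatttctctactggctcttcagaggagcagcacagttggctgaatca
Trim30d, chr7:104507800-104508099: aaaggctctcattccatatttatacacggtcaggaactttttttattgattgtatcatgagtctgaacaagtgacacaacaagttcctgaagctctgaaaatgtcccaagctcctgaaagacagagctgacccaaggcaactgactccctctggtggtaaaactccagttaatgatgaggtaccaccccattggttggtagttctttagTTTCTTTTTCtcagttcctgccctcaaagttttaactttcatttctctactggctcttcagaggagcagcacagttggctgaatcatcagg
Trim12a, chr7:104315446-104315745: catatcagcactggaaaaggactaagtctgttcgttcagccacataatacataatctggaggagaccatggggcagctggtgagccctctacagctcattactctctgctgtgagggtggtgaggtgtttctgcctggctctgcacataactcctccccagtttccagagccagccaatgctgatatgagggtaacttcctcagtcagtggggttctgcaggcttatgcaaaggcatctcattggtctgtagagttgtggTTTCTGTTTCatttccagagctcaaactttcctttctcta
Trim21, chr7:102565433-102565732: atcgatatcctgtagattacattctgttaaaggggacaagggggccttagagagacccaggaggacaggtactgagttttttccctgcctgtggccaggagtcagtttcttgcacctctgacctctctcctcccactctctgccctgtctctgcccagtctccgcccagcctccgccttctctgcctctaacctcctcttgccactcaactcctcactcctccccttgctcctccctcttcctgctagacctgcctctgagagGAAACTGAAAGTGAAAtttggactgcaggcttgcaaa
Trim30c, chr7:104400729-104401028: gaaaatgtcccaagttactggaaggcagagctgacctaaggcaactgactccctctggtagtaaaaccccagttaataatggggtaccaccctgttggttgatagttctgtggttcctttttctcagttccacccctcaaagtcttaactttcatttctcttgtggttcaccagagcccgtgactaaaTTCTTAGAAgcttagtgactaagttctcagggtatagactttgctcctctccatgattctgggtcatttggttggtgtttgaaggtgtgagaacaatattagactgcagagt

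The match in Trim30a begins 36 bases before the start and that in Trim30d 41 bases before it, both on the reverse strand, within a stretch the neighbouring genes share. In Trim12a the match begins 10 bases after the start, also on the reverse strand. Trim21 holds a pair of overlapping forward matches, beginning 13 and 19 bases after the start. Trim30c has no GAAA pair in this window and a TTCNNNGAA 62 bases before the start. A match is a run of letters and was not shown to be bound here.

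A RefSeq window was found for 53 of the 68 TRIM genes. The GAAA pair occurred in 9 of the 53 (17%), against 3.99% of the 27025 genes with a window. All 9 were among the 30 TRIM genes with a window that passed the expression filter (30%), and of the 23 that did not pass, 0 held it. Among all genes past the filter the share was 4.07%. The 9 are Trim2, Trim5, Trim12a, Trim12c, Trim21, Trim26, Trim30a, Trim30d and Trim34a, of which several are neighbouring copies and share sequence. TTCNNNGAA occurred in 6 of the 53 (11.3%), against 9.55% of all genes.

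The TRIM genes ranged widely in level. Of the 28 that did not pass the filter, 12 were listed at 0 in every library, among them Trim63, a ubiquitin ligase of muscle, and Trim29. Just inside the filter by their second-highest value were Trim46 at 1.05 FPKM and Trim45 at 1.06, and just outside were Trim47 at 0.852 and Trim17 at 0.715. The highest means over the 6 libraries belonged to Trim28, Trim25, Trim35, Trim30a and Trim12a, the first at 74.5 and the last at 25.04 FPKM. The TRIM genes summed to 491 to 630 FPKM per library, highest in the lymph node library of naive T-cell recipients, or 0.057% to 0.101% of all FPKM.

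**Figure D1:**
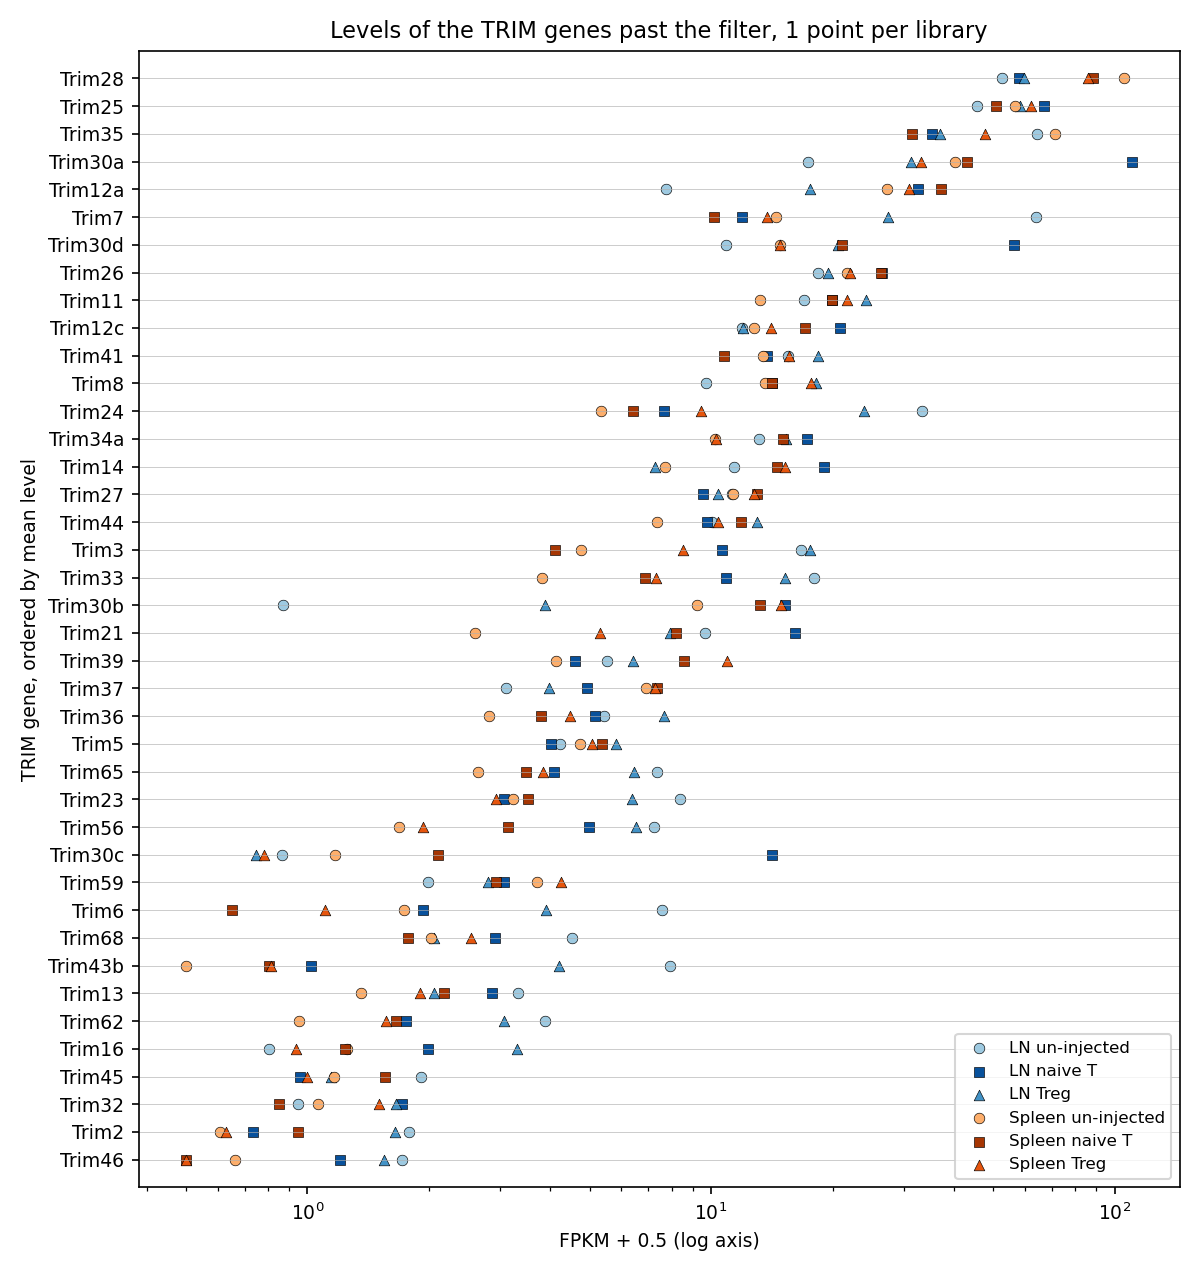
Levels of the 40 TRIM genes past the filter, 1 point per library, as FPKM + 0.5 on a log axis, with genes ordered by mean level. Trim28, Trim25 and Trim35 lie high in all 6 libraries, while Trim30a reaches 110.2 FPKM in the lymph node of naive T-cell recipients and Trim30c is near the left in 4 of the 6.

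The comparison of naive T-cell recipients with un-injected mice asks how the transfer of T cells changes dendritic cells of the same tissue. In the lymph node the highest ratios were those of the Trim30 genes and Trim12a, neighbours on chromosome 7, and among the lowest were Trim43b, Trim7, Trim24 and Trim6. Of the 40 TRIM genes, 6 were at least 2-fold higher, beside 16.9% of the 10818 genes tested, and 7 were at least 2-fold lower, beside 16.6%. The median log2 ratio, taken on FPKM + 0.5, was -0.07, and 0 over all genes. The counts of TRIM genes were thus near the background in both directions.

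Trim30a, which in mice restrains NF-kB signalling by promoting loss of TAB2 and TAB3, lies at chr7:104409025-104465193. It was at 16.9, 110.2 and 30.8 FPKM in lymph node libraries of un-injected, naive T-cell and Treg recipients, and at 39.8, 42.5 and 32.7 in the spleen libraries in the same order. The lymph node of naive T-cell recipients stood above the other 5 libraries. The ratio there was 6.38-fold, a log2 ratio of 2.67, and in the spleen the log2 ratio was 0.09.

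Trim30d, its neighbour, was at 10.4, 56.0 and 20.1 FPKM in the lymph node and 14.4, 20.6 and 14.3 in the spleen. It was 5.18-fold higher in the lymph node, a log2 ratio of 2.37, and the spleen log2 ratio was 0.51. Trim30b was at 0.370, 14.8 and 3.38 FPKM in the lymph node and 8.71, 12.8 and 14.4 in the spleen. The un-injected lymph node was the lowest library, and the ratio of naive T-cell recipients to it was 17.6-fold, a log2 ratio of 4.14. With the low level of 0.370 FPKM below it, that ratio moves with the constant added, from 3.53 on the log2 scale with 1 FPKM to 4.99 with 0.1, and it was 5.32 in the authors' deposited table.

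Trim30c was at 0.365, 13.7 and 0.244 FPKM in the lymph node and 0.670, 1.61 and 0.280 in the spleen. A single library of the 6 was above 2 FPKM. Its ratio in the lymph node was 16.4-fold, a log2 ratio of 4.04, or 3.43 with 1 FPKM added, 4.89 with 0.1 and 5.23 in the authors' deposited table. Trim12a, a rodent relative of the primate retrovirus restriction factor TRIM5, was at 7.26, 32.1 and 17.1 FPKM in the lymph node and 26.7, 36.6 and 30.5 in the spleen, so that only the un-injected lymph node was below 10 FPKM. Trim16, whose human protein has no RING domain and takes part in autophagy of damaged vesicles, was the other gene at least 2-fold higher, at 0.302 against 1.49 FPKM.

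The lower genes included Trim7, which binds glycogenin, the primer of glycogen synthesis. It was at 63.2, 11.5 and 26.9 FPKM in the lymph node and 14.0, 9.66 and 13.3 in the spleen. The un-injected lymph node stood apart from the other 5 libraries, and the level with naive T cells was 5.33-fold lower. Trim24, a nuclear corepressor that restrains retinoic acid receptor alpha in mouse liver, was at 32.9, 7.15 and 23.5 FPKM in the lymph node and 4.83, 5.91 and 8.92 in the spleen. It was 4.37-fold lower with naive T cells in the lymph node, while the spleen log2 ratio was 0.27.

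Trim6, whose human protein builds unanchored ubiquitin chains in interferon signalling, was at 7.07, 1.43 and 3.40 FPKM in the lymph node and 1.24, 0.149 and 0.608 in the spleen. It was the only one of the 40 at least 2-fold lower in both tissues with naive T cells, by 3.92-fold and 2.68-fold, beside 1.32% of all genes. The spleen log2 ratio of -1.42 was -0.96 with 1 FPKM added, which ends the 2-fold call, and -3.06 in the authors' deposited table. Trim23, which carries an ARF-type GTPase domain, was at 7.86 FPKM without transfer and 2.57 with naive T cells in the lymph node, and at 2.72 and 3.02 in the spleen. The genes at least 2-fold lower also included Trim2, Trim62 and Trim43b. Trim43b was at 7.42, 0.522 and 3.69 FPKM in the lymph node and is listed at 0 in the un-injected spleen.

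**Figure D2:**
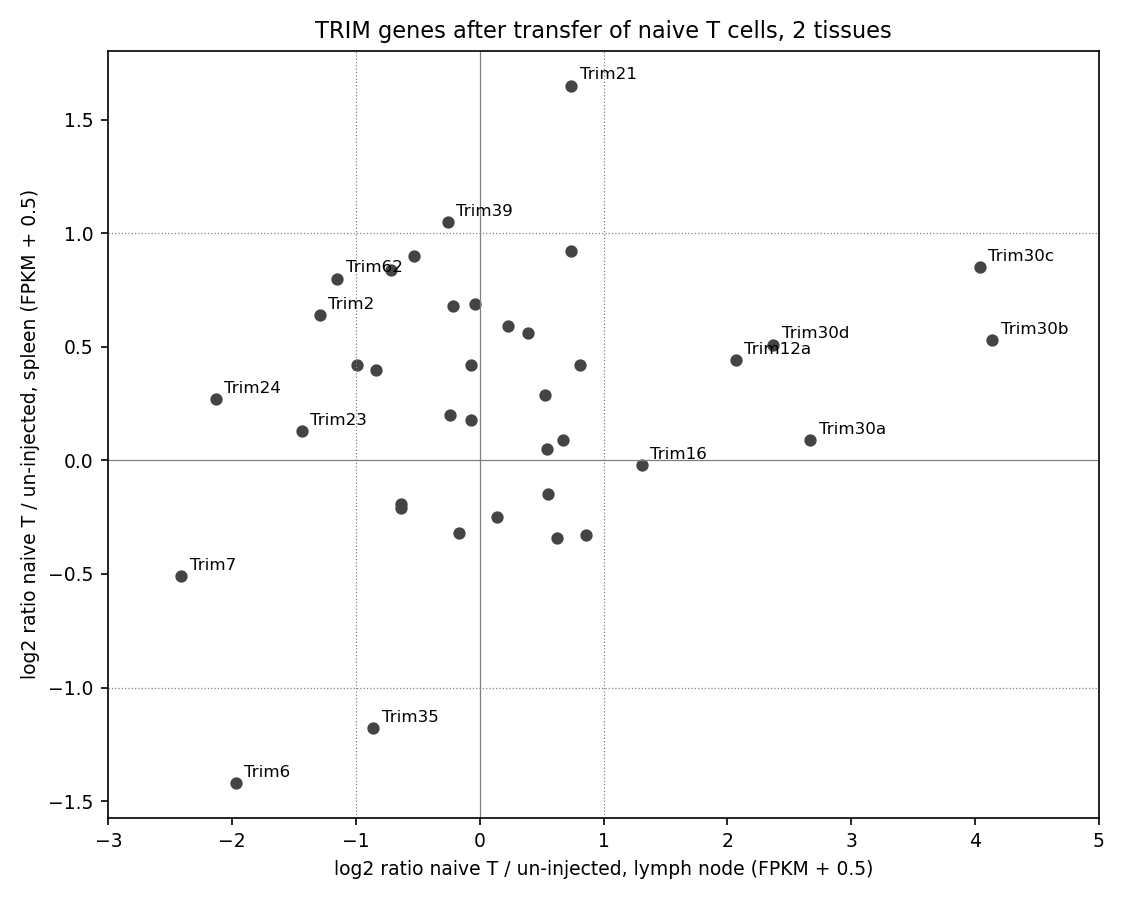
Log2 ratio of FPKM + 0.5 in naive T-cell recipients over un-injected mice, in lymph node (horizontal) and spleen (vertical), 1 point per TRIM gene past the filter except Trim43b and Trim46, which are listed at 0 in a spleen library. Trim30b and Trim30c lie far to the right at log2 ratios of 4.14 and 4.04, and Trim6 lies at the lower left.

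In the spleen the naive T-cell ratios were smaller. Of the 40 TRIM genes, 2 were at least 2-fold higher, beside 4.5% of all genes, and 2 at least 2-fold lower, beside 6.01%. The median was 0.34, and -0.04 over all genes. Scaled by library totals, 7 TRIM genes were higher, beside 10.8% of all genes, and 1 lower, beside 3.22%. Trim21, the cytosolic receptor for antibody-coated particles, was at 9.18, 15.7 and 7.43 FPKM in the lymph node and 2.10, 7.67 and 4.81 in the spleen, the lowest value being the un-injected spleen. Its ratio was 3.14-fold in the spleen, a log2 ratio of 1.65. Trim39 was at 3.63 against 8.06 FPKM, a log2 ratio of 1.05.

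Trim35, among the most abundant members, was at 63.9, 34.9 and 36.4 FPKM in the lymph node and 70.8, 30.9 and 47.2 in the spleen. Both un-injected libraries were above the other 4. The log2 ratios of naive T cells to un-injected were -0.86 and -1.18, the latter -0.79 when scaled by totals. Of the 40, 0 were at least 2-fold higher in both tissues, beside 1.21% of all genes, and of the 40 TRIM genes 15 were lower in the lymph node and higher in the spleen, 24.9% being the share over all genes.

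A fit over both tissues asked whether the shift was alike in lymph node and spleen. Under limma with transfer state and tissue as terms, on log2(FPKM + 1) with Benjamini-Hochberg adjustment over 10818 genes, the naive T-cell comparison called 0% of genes at an adjusted p of 0.05, and 0 of the 40 TRIM genes. At an unadjusted p under 0.05 there were 8 TRIM genes, and 785 over all genes. The smallest TRIM adjusted p was 0.661. The p-values of this fit, with 2 residual degrees of freedom, measure how far the tissues moved alike and not the spread between mice.

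Among the 8 was Trim6, at a log2 difference of -1.35 ± 0.39 (SE), as were Trim35 at -1.01 ± 0.29, Trim7 at -1.43 ± 0.49 and Trim30d at 1.41 ± 0.48, each with a limma adjusted p of 0.661. Trim12a was at 1.22 ± 0.44, with the same limma adjusted p. Without the spleen library of naive T-cell recipients, limma called Trim30a and Trim30b of 38 TRIM genes, beside 3.97% of all genes, the smallest TRIM adjusted p being 0.0258. In that fit the lone naive T-cell library is assumed to vary like the other groups. In the authors' deposited tables, genes were taken here as changed at a fold of at least 2 and a deposited p of at most 0.01. For lymph node naive T cells, 2 TRIM genes of the 29 with a usable test met this, beside 3.46% of all genes with one. These were Trim30a at a deposited p of 0.00565 and Trim30d at a deposited p of 0.0081. The smallest TRIM q there was 0.799614, and by the same cut-offs 0 TRIM genes were taken as changed in the authors' deposited tables for the other 5 comparisons.

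The Trim30 genes lie in a cluster of 10 TRIM genes on mouse chromosome 7, at chr7:104218793-104507849, which spans 289 kb and holds 10 of the 16 TRIM genes of that chromosome. In order along the chromosome these are Trim6, Trim34a, Trim5, Trim12a, Trim34b, Trim12c, Trim30b, Trim30c, Trim30a and Trim30d, and 9 passed the filter. With naive T cells in the lymph node, Trim30a to Trim30d and Trim12a were at least 2-fold higher and Trim6 at least 2-fold lower. Trim12c, another TRIM5 relative, was at 11.4, 20.4 and 11.5 FPKM in the lymph node and 12.3, 16.6 and 13.5 in the spleen, under 2-fold in each. Trim34a was at 12.7, 16.8 and 14.9 FPKM in the lymph node and 9.71, 14.5 and 9.77 in the spleen. Trim5 was at 3.72, 3.52 and 5.32 and at 4.23, 4.86 and 4.57 FPKM, also under 2-fold in each, while Trim34b stayed at or under 0.535 FPKM.

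Neighbouring copies share sequence, so reads can be split between them. Of the 50-base words of its transcripts, Trim30a shares 5.98% and Trim30d 7.49% with another gene, Trim30b 0.55% and Trim30c 0.66%. Trim12a shares 10.4%, but Trim12c shares 33%, Trim5 36.3% and Trim34a 39.8%. The values of Trim12c, Trim5, Trim34a and Trim34b are therefore uncertain, as is that of Trim43b, with 47.7%.

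**Figure D3:**
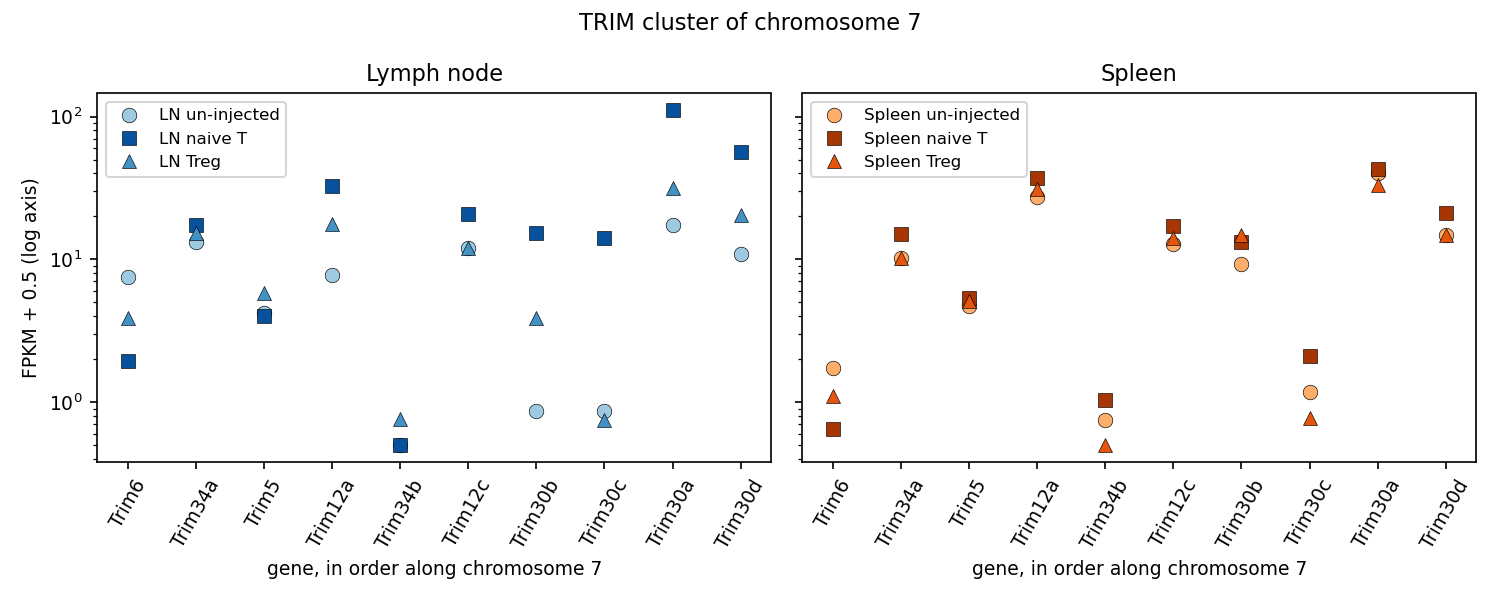
FPKM + 0.5 on a log axis for the 10 TRIM genes of the chromosome 7 cluster, in chromosome order, in the 3 lymph node libraries (left) and the 3 spleen libraries (right). In the lymph node the naive T-cell square is well above the other symbols for Trim30a, Trim30b, Trim30c, Trim30d and Trim12a and well below them for Trim6.

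The 14 TRIM genes past the filter on a list of members linked to interferon had a median log2 ratio of 0.74 with naive T cells in the lymph node. Of these, 5 were at least 2-fold higher and 1 lower, beside 16.9% and 16.6% of all genes. The 5 are Trim30a to Trim30d and Trim12a, all of the chromosome 7 cluster. In the spleen the median was 0.48 with 1 higher and 1 lower, beside 4.5% and 6.01%. Over the 22 past the filter of the 37 SPRY members, 5 were at least 2-fold higher and 4 lower in the lymph node, with a median of 0.08, beside the same shares of all genes. Of 10 members past the filter that act between RIG-I and NF-kB, 1 was higher there and 1 lower, beside the same shares, with a median of 0.16. The 9 genes with a GAAA pair in the window had a median of 0.74 in the lymph node and 0.44 in the spleen, against -0.24 and 0.13 for the 21 others with a window. The 21 include Trim30b and Trim30c, which had the highest lymph node ratios. Apart from Trim2, the 9 are also on the interferon list, so the 2 medians are not separate results. The list was chosen with earlier results of these data known. Trim25, which attaches ubiquitin to the RNA sensor RIG-I, was at 45.2, 66.2 and 57.7 FPKM in the lymph node and 56.1, 50.3 and 61.6 in the spleen, under 2-fold throughout. Trim14, an adaptor in antiviral signalling that lacks a RING domain, was at 10.9, 18.5 and 6.76 and at 7.19, 14.1 and 14.7 FPKM.

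Of 26 genes for the nucleic acid sensors, their signalling partners and ubiquitin enzymes, 7 were at least 2-fold higher with naive T cells in the lymph node, beside 16.9% of all genes, and 0 lower, beside 16.6%, with a median of 0.17. Ddx58, which encodes RIG-I, had a log2 ratio of 2.69, and Irf7, the transcription factor that amplifies interferon, of 4.97. In the spleen 2 were higher, beside 4.5%, and 1 lower, beside 6.01%. Pml, itself a TRIM protein under another symbol and the scaffold of nuclear bodies, was at 7.22, 34.7 and 11.8 FPKM in the lymph node and 7.62, 13.2 and 6.09 in the spleen. Mefv, which encodes pyrin, had a log2 ratio of 2.04 in the lymph node and 0.19 in the spleen.

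Marker lists differed between the same libraries. The summed FPKM of 20 interferon response genes was 1324, 5898 and 892 in the lymph node and 561, 1359 and 437 in the spleen. Of the 20, 16 were at least 2-fold higher with naive T cells in each tissue. The share over all genes was 16.9% in the lymph node and 4.5% in the spleen. The sum of 10 monocyte genes was 121 in the un-injected lymph node, 3394 with naive T cells and 475 with Tregs, and 838, 500 and 457 in the spleen. With naive T cells, 10 of 10 were at least 2-fold higher in the lymph node, beside 16.9% of all genes. In the spleen 6 of 10 were at least 2-fold lower, beside 6.01%. The sum of 8 migratory dendritic cell genes was 17950 in the un-injected lymph node and 2667 with naive T cells, where 8 of 8 were at least 2-fold lower, beside 16.6% of all genes. Of 10 neutrophil genes 7 passed the filter, and the 10 summed to 14.2, 22.3 and 2.91 in the lymph node and 841, 23.96 and 6.37 in the spleen. The sum of 9 macrophage genes was 170 to 383 in the lymph node and 308 to 686 in the spleen. The part of each list in the TRIM ratios was not tested.

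**Figure D4:**
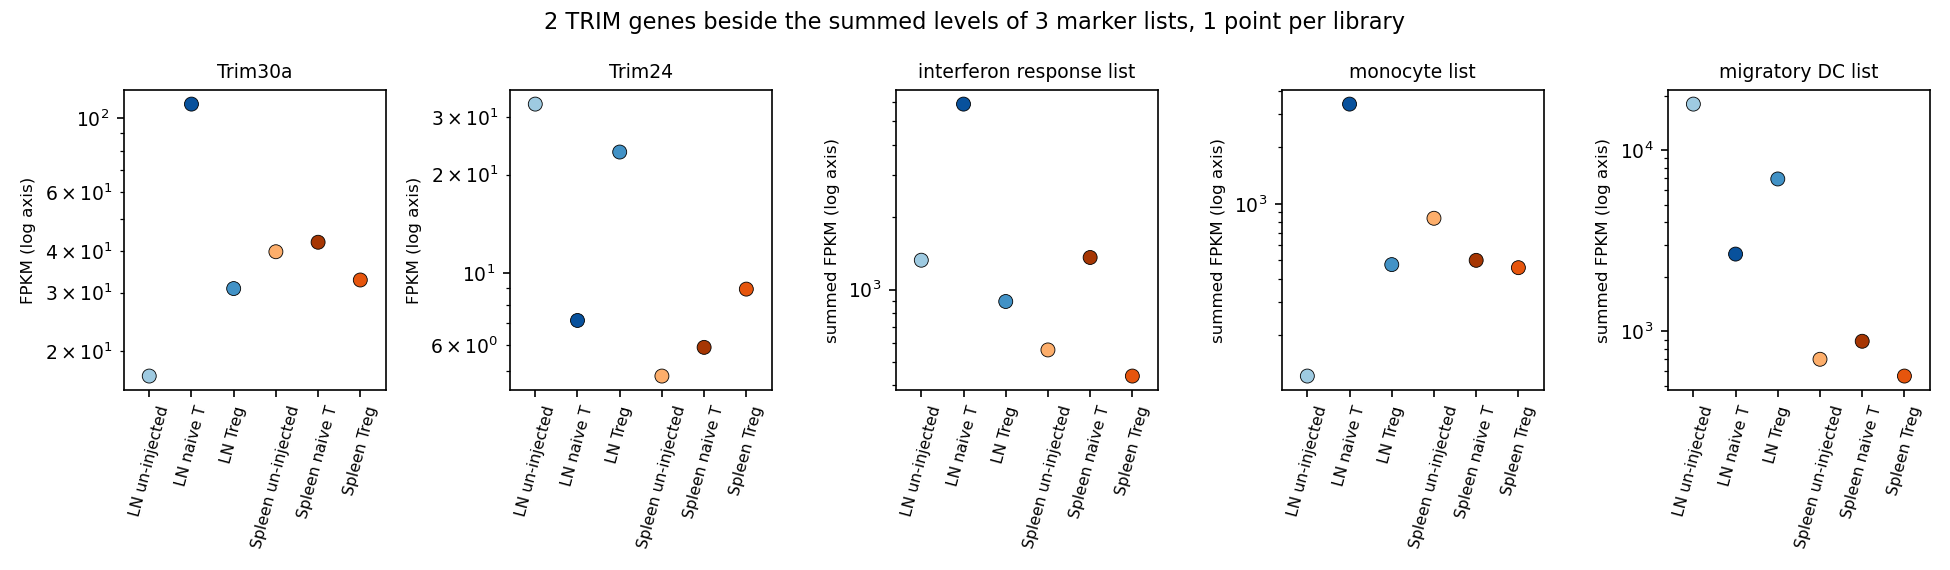
Trim30a and Trim24 in FPKM, and the summed FPKM of the interferon response, monocyte and migratory dendritic cell marker lists, 1 point per library on log axes. The lymph node library of naive T-cell recipients is the highest for Trim30a, the interferon list and the monocyte list, and the un-injected lymph node is the highest for Trim24 and the migratory dendritic cell list.

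The Treg comparison asks the same of regulatory T cells, with the same un-injected libraries as controls. In the lymph node 3 TRIM genes were at least 2-fold higher, beside 11.4% of all genes, and 2 lower, beside 6.91%, with a median log2 ratio of 0.04 and -0.02 over all genes. Scaled by library totals, 7 TRIM genes were higher, beside 16.9% of all genes, and 0 lower, beside 3.63%. The higher genes were Trim30b at a log2 ratio of 2.16, Trim16 at 2.04 and Trim12a at 1.18, and the lower were Trim7 at -1.22 and Trim68 at -1.14. In the spleen 2 were higher, Trim39 at 1.40 and Trim21 at 1.03, beside 4.51% of all genes, and 0 were lower, beside 5.87%, with medians of 0.19 and -0.04. Under totals 8 were higher in the spleen, beside 11.7%, and 0 lower, beside 2.89%. Under limma this contrast called 0% of all genes, and 0 of the 40 TRIM genes at an unadjusted p under 0.05, with 508 over all genes and a smallest TRIM adjusted p of 0.938.

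Set side by side, naive T-cell and Treg recipients of the lymph node differed at least 2-fold upwards in 6 TRIM genes, beside 9.3% of all genes, and downwards in 6, beside 11.4%, with a median of -0.26 and -0.02 over all genes. Trim30c led the higher genes at 13.7 against 0.244 FPKM, followed by Trim30b at 3.94-fold, Trim30a at 3.53-fold and Trim30d at 2.74-fold, with Trim14 and Trim21 after them. The lower genes were Trim43b, Trim24, Trim7, Trim2, Trim23 and Trim6, from a log2 ratio of -2.04 to -1.01. In the spleen 1 was higher, Trim30c at 1.61 against 0.280 FPKM, beside 4.12%, and 1 lower, Trim3, beside 3.71%. Trim30c was thus at least 2-fold higher in both tissues, beside 1.39% of all genes. Limma called 0% of genes, and 2 TRIM genes had an unadjusted p under 0.05, with 370 over all genes and a smallest TRIM adjusted p of 0.963.

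The tissues differed most in un-injected mice. There, 15 TRIM genes were at least 2-fold higher in the lymph node than in the spleen, beside 21% of all genes, and 5 lower, beside 20.9%, with a median of 0.39 and -0.03 over all genes. The 15 include Trim43b, which is listed at 0 in the un-injected spleen. Under totals 16 TRIM genes were higher, beside 27.9%, and 2 lower, beside 15.4%. In naive T-cell recipients 7 were higher, beside 12.2%, and 0 lower, beside 8.94%, with medians of 0.25 and 0.04. In Treg recipients 10 were higher, beside 13.4%, and 2 lower, beside 8.37%, with a TRIM median of 0.2. Under totals 13 were higher, beside 18.1%, and 1 lower, beside 5.76%. Trim33, a corepressor and ubiquitin ligase for Smad4, was at 17.5, 10.4 and 14.7 FPKM in the lymph node and 3.31, 6.35 and 6.80 in the spleen. Trim56, which acts in nucleic acid sensing, was at 6.71, 4.49 and 6.00 and at 1.19, 2.64 and 1.44 FPKM. Both are among the 16 TRIM genes that were higher in the lymph node in all 3 states, beside 26.1% of all genes.

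Trim3, a member with NHL repeats, was at 16.2, 10.2 and 17.1 FPKM in the lymph node and 4.25, 3.60 and 8.001 in the spleen. It, Trim6 and Trim46 were the 3 TRIM genes at least 2-fold higher in the lymph node in all 3 states, beside 4.04% of all genes, with Trim46 listed at 0 in both spleen transfer libraries. Trim65, which ubiquitinates the RNA sensor MDA5 and overlaps Trim47 on the same strand, was at 6.85, 3.59 and 5.94 and at 2.14, 2.97 and 3.33 FPKM.

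Genes on the spleen side were fewer. Trim28, the corepressor recruited by KRAB zinc-finger proteins, was at 52.1, 57.5 and 59.1 FPKM in the lymph node and 104.8, 87.7 and 85.7 in the spleen. Trim37, which acts in peroxisome import, was at 2.61, 4.44 and 3.47 and at 6.41, 6.83 and 6.75 FPKM. Of the 40, 4 were lower in the lymph node in all 3 states, Trim12a, Trim27, Trim28 and Trim37, beside 24.7% of all genes. Of 12 corepressor partner genes of Trim28 and Trim33, 1 was at least 2-fold higher with naive T cells in the lymph node and 0 lower, beside 16.9% and 16.6% of all genes. The fourth PHD-bromodomain gene, Trim66, did not pass the filter.

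Across the 3 states limma called 0.684% of all genes between lymph node and spleen, and 0 of 40 TRIM genes. At an unadjusted p under 0.05 there were 13 TRIM genes, and 2738 over all genes. The smallest TRIM adjusted p was 0.0771, that of Trim3 at a log2 difference of 1.33 ± 0.27 (SE), followed by Trim6 at 1.46 ± 0.32, with a limma adjusted p of 0.0857. The calls of TRIM genes changed with the library left out. With either library of naive T-cell recipients left out, the remaining one is fitted exactly by its own state term. Both fits of the tissue contrast then rest on the same 4 libraries, so they are not separate checks. The 8 migratory dendritic cell genes summed to 17950, 2667 and 6930 FPKM in the lymph node and 700.2, 880 and 566 in the spleen. Whether this has a part in the TRIM differences was not tested.

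**Figure D5:**
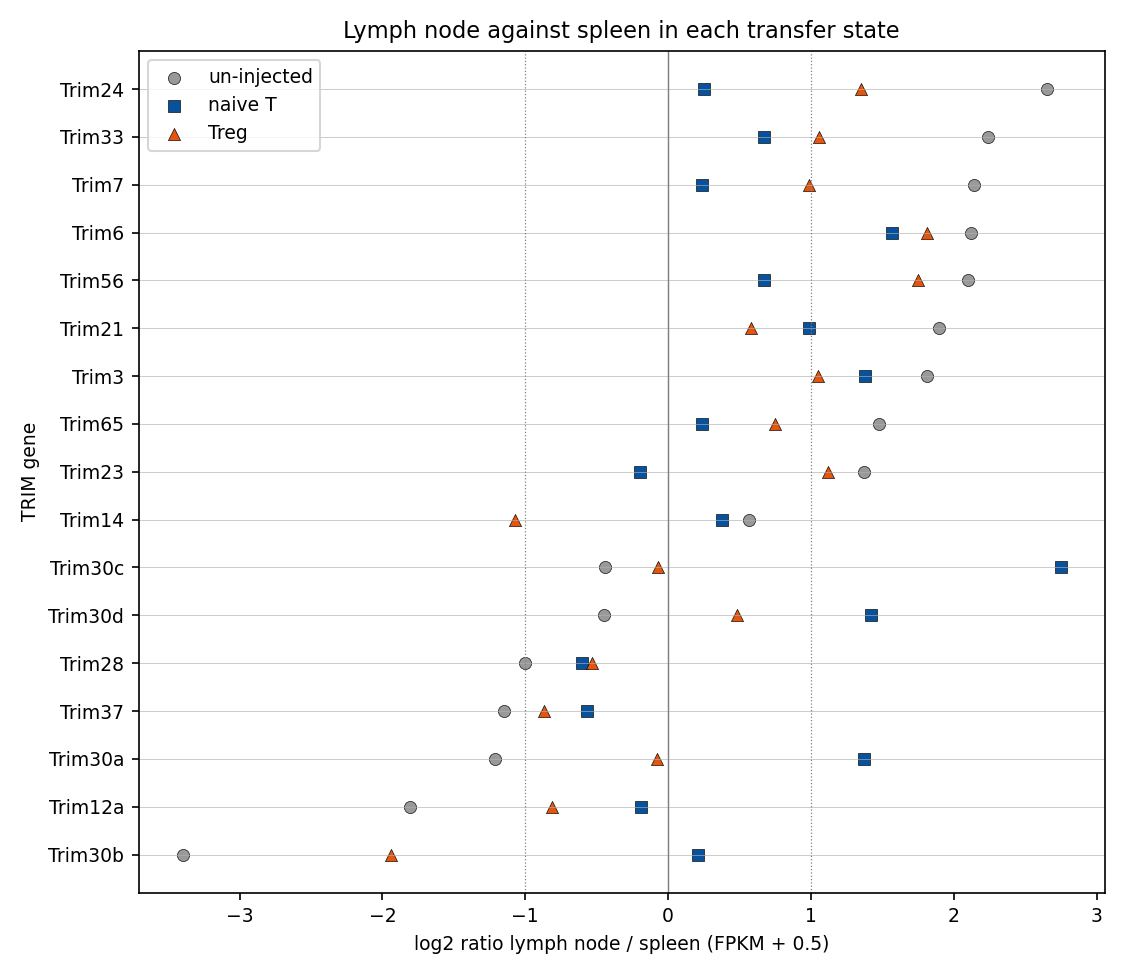
Log2 ratio of lymph node over spleen, on FPKM + 0.5, in un-injected, naive T-cell and Treg libraries for the TRIM genes named in these comparisons except Trim43b, which is listed at 0 in the un-injected spleen, with dotted lines at 2-fold. Of those plotted, Trim24, Trim33 and Trim7 lie furthest right in un-injected mice, at 2.65, 2.24 and 2.14, and Trim30b furthest left at -3.40.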

How the data were processed

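RNA from 6 dendritic cell libraries was analysed, 1 per tissue and transfer state. The authors deposited FPKM values per gene, and the header of the expression table names no unit: FPKM was read from the values. Depth is unknown, so no counting interval is given. Median-ratio factors of these values were 1.0001 to 1.0246, so the libraries were already level by that measure. Their totals ran from 552580 to 861260 FPKM, so scaling by totals departs from that level. The submitters' processing notes list RSEM, edgeR 3.16.5, mm10 and GRCm38.p4. The authors also deposited 6 tables of 1 library against another, with log2 fold changes (a score here, since some exceed the range of a log2 value), p-values and q-values, from a test that neither labels nor headers name.

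Within a tissue, ratios are of FPKM + 0.5 and carry no test. Across tissues, limma 3.58.1 (R 4.3.3) was fitted to log2(FPKM + 1) with state and tissue. A check of the fit on simulated data gave both tissues the same shift and all genes the same noise. It does not cover shifts that differ between tissues. Alternatives were other pseudocounts, filters, scaling by library totals, the authors' fold changes, and leaving out each library. The genes named reached 5 FPKM in at least 1 library and differed at least 2-fold in a transfer or tissue comparison, or lie in the chromosome 7 cluster, are the 5 highest by mean, or have a PHD-bromodomain, and others are named from gene lists. Trim2, Trim16, Trim27, Trim29, Trim46, Trim62, Trim63 and Trim68 are outside that rule, complete counts or serve as examples, and were named after their values were seen. Members and lists were chosen with earlier results of these data known. All 68 TRIM genes matched GENCODE M21 by Ensembl ID.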

Additional observations from a re-analysis of the deposited data

Results flagged for a closer look

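Trim30a stood out because its tissue ratio had opposite directions in different transfer states. Its log2 ratio of lymph node to spleen was -1.21 in un-injected mice and 1.37 in naive T-cell recipients. The levels behind these were 16.9 and 39.8 FPKM, and 110.2 and 42.5 FPKM. Scaled by library totals, the ratio in un-injected mice fell under 2-fold. The difference between the ratios was not tested, as each is of a single pair of libraries.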

How the results depend on the processing

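No analysis paired by mouse was possible, because which mice were pooled is not stated. Each group holds 1 library, whose replicate number is only a name. The limma contrast of the tissues does set lymph node and spleen of the same state side by side, and without that term it called 0 TRIM genes of 40 and 311 genes in all. Of 297 values of named-gene ratios under the alternatives, 286 kept their direction and their side of 2-fold, 11 ended a 2-fold call and 0 reversed. Those under another filter could not move, since a filter leaves a gene's own ratio unchanged. Median-ratio factors were all close to 1, so values under that scaling could move little. Trim6, Trim30c and Trim43b do not pass the filter of 5 FPKM, so their ratios have no value under it. By size, 17 of the 297 moved by over 1.5 times, all of Trim6, Trim30b, Trim30c or Trim43b, which are below 1 FPKM in a library compared. The 11 were Trim39, Trim6, Trim21 and Trim28 with a pseudocount of 1, Trim35, Trim7, Trim30a, Trim37, Trim28 and Trim14 with totals, and Trim28 with median-ratio factors, at absolute log2 ratios from 0.66 to 0.99. Of 168 counts, 129 lay within 1.5 times and 39 did not, and no cause was tested. With a pseudocount of 0.1, the counts of TRIM genes at least 2-fold higher or lower were 7 higher in spleen naive T cells against un-injected, 4 lower in lymph node Treg against un-injected, 6 higher and 2 lower in spleen Treg, 2 higher and 3 lower in spleen naive T cells against Treg, and 1 lower in naive lymph node against spleen. With a pseudocount of 1 they were 1 higher and 1 lower in spleen naive, 1 lower in lymph node Treg, 1 higher in spleen Treg, 3 lower in lymph node naive against Treg, and 0 lower in spleen naive against Treg. With a filter of 5 FPKM they were 3 lower in lymph node naive, 1 lower in spleen naive, 1 lower in lymph node Treg, 3 lower in lymph node naive against Treg, 0 higher in spleen naive against Treg, and 8, 3 and 5 higher in lymph node against spleen in un-injected, naive T-cell and Treg recipients. With no filter, 2 were higher in spleen naive against Treg and 1 lower in naive lymph node against spleen. Scaled by totals, 7 were higher and 1 lower in spleen naive, 7 higher and 0 lower in lymph node Treg, 8 higher in spleen Treg, and 2 and 1 lower in lymph node against spleen in un-injected and Treg recipients. This scaling moved the median of all genes by 0.35 in both spleen comparisons with un-injected mice, by 0.27 in lymph node Treg, by 0.31 and 0.24 in un-injected and Treg lymph node against spleen, and by 0.09 in lymph node naive, where the TRIM median became 0.04. By the authors' deposited fold changes, 7 were higher in spleen naive, 5 lower in lymph node Treg, 6 higher and 3 lower in spleen Treg, and 3 higher and 3 lower in spleen naive against Treg. Leave-one-out limma counts of called TRIM genes changed for naive T cells against un-injected and for lymph node against spleen. In each such fit 1 state has a single library, which adds nothing to the tissue contrast. Fits that leave out either library of a state are therefore not separate checks of that contrast.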
